A study of Mus musculus with 4 samples.

Results

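Interferon-stimulated genes, 41 in all, were followed across the malignant and host cells of mouse sarcomas from animals given vehicle or digoxin. The genes were chosen as a fixed list of symbols, with earlier results of these data known. Of these, 40 were present in both deposited tables, which held 17992 genes for malignant cells and 16349 genes for non-malignant cells. Mx2 was not analysed here. The 40 genes were grouped by role as 4 transcription factors, 6 sensors of foreign nucleic acid, the pair Isg15 and Usp18, 12 antiviral effectors, 3 interferon-induced transmembrane (IFITM) proteins, 6 GTPases of the guanylate-binding and immunity-related families, and 7 others.

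Interferons are secreted proteins that warn tissue of infection or damage. Type I interferons act through Ifnar1 and Ifnar2, and interferon gamma acts through Ifngr1 and Ifngr2. Both receptors signal through Jak kinases to STAT and IRF factors, which bind short DNA elements near the starts of these genes. In tumors, macrophages, lymphocytes and the malignant cells themselves can carry this response.

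Both groups shared 1 genotype, which includes Trp53flox/flox, on the 129/SvJae background, with sarcomas in the hind limb described as an allograft model. Trp53 is removed in such cells by Cre recombinase, whose source is not given in the sources used here. The vehicle group (2 mice) received PBS and the digoxin group (2 mice) received digoxin at 2 mg/kg into the peritoneum every 24 h, and tumors were taken after 4 doses. Digoxin is a cardiac glycoside that inhibits the sodium pump. Tumors were dissociated by shaking for 45 min at 37 °C with enzymes, and RNA molecules were tagged with unique molecular identifiers (UMIs) at their 3′ ends in a droplet platform. Ages are not given in the sources used here. With 2 mice per group, p-values speak only of these 4 tumors, and limma takes each gene's spread partly from other genes.

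The files held 18963 malignant and 12648 non-malignant cells, and the median depth in the 4 mice was 46799 to 57658 UMIs among the former and 15837 to 16671 UMIs among the latter. Trp53, whose conditional alleles all groups carry, was 7.71, 7.23, 6.56 and 6.62 CPM (UMIs scaled to 1000000 UMIs of a cell) in malignant cells and 63.8 to 75.5 CPM in non-malignant cells. Of 31498 distinct cell barcodes, 113 occurred in more than 1 library. Cell types keep the deposited names. The type named Epithelial carried the endothelial markers Cdh5 and Pecam1 at means of 888 and 841 CPM, while the epithelial marker Epcam was at 0.122 CPM. The type named Microglia carried Siglech and Bst2, which mark plasmacytoid dendritic cells, at 2449 and 3011 CPM, while the microglial marker Tmem119 was at 1.43 CPM. Host cells of vehicle replicate 2 stood apart from the other 3 mice in sex-linked genes: the mean CPM of Xist was 722, 6.09, 817 and 788 in vehicle replicates 1 and 2 and digoxin replicates 1 and 2, and that of Ddx3y was 1.77, 86.0, 1.72 and 2.14. Throughout, 4 values in a row are in this order of mice.

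The promoters show how the list relates to interferon signalling. Of the 40 genes, 30 matched a RefSeq promoter, taken as 250 bases before to 50 bases after the start on mouse build GRCm38.p6. The interferon-stimulated response element, searched on both strands as TTTC, any 2 bases (NN) and TTTC, was present in a promoter of 19 of 30 genes (63.3%), against 3.99% of 27025 genes and 3.44% of all 32851 promoters. The gamma-activated site, searched as TTCNNNGAA, which reads the same on both strands, was present in 9 of 30 (30%), against 9.55% of genes and 8.30% of all promoters. Both elements were present in 6 genes, the response element alone in 13, the gamma-activated site alone in 3, and neither in 8, where only these letters in this window were searched. All 5 matched GTPases, all 3 matched sensors and the 1 matched gene of the Isg15 and Usp18 pair held the response element. It was present in 6 of 10 antiviral effectors, 2 of 3 IFITM genes, 1 of 4 factors and 1 of 4 others. The 7 stretches below, all upstream of the start and read along the gene's own strand, show the element in single, repeated and overlapping copies in 5 genes, side by side with a gamma-activated site in Igtp, and the gamma-activated site alone in Irf1. Capitals mark the matched bases. The reference is the C57BL/6J genome, and the mice were of another strain.
Ifit1, chr19:34640770-34640828, plus strand: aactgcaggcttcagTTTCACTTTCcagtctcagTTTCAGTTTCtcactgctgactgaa
Ifit3, chr19:34583358-34583431, plus strand: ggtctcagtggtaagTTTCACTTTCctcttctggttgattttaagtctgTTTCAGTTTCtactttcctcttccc
Isg15, chr4:156200860-156200911, minus strand: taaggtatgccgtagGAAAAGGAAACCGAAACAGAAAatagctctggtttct
Rsad2, chr12:26456548-26456587, minus strand: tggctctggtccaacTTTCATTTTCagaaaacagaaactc
Gbp2, chr3:142620589-142620628, plus strand: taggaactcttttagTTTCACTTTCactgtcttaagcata
Igtp, chr11:58199496-58199546, plus strand: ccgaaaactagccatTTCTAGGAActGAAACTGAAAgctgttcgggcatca
Irf1, chr11:53769909-53769947, plus strand: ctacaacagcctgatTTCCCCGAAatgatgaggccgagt
In Ifit1 and Ifit3 the element occurred 2 times, and in Isg15 3 overlapping matches ran together. These matches are a description of the letters and not of binding.

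The members differed by cell type. UMIs at the 3′ end do not scale with transcript length, so mean CPM was set side by side between genes. Ifitm2 and Ifitm3, membrane proteins that block viral entry, were abundant nearly everywhere. Ifitm3 ranged from 1073 to 1178 CPM over the 4 mice in malignant cells and from 2018 to 2318 CPM in the type named Epithelial. Bst2 (tetherin, which holds budding virus at the cell surface) was at 2881 to 3284 CPM in the type named Microglia, against 226 to 394 CPM in the next type, Epithelial. Irf7, the factor that amplifies type I interferon production, was highest in Microglia too, at 445 to 601 CPM, with Macrophage second at 171 to 264 CPM. Ifi27l2a, a small hydrophobic protein induced by type I interferon, was highest in T cells at 1603 to 3060 CPM, and its range overlapped that of Osteoclasts at 912 to 1778 CPM. Ifitm1 was highest in NK cells at 352 to 793 CPM, overlapping T cells at 113 to 369 CPM, and was lowest in malignant cells at 3.55 to 5.05 CPM.

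Among the malignant cells and the 7 host types with at least 20 cells in every mouse, T cells had the highest mean for 16 of 40 members, against 10.2% of 15979 genes. Microglia had it for 9, against 15.9% of genes, and Macrophage for 7, against 8.24%. Fibroblast had it for 4, against 13.6%, NK for 3, against 8.59%, and Epithelial for 1, against 16.7%. Malignant cells and Osteoclasts had it for 0 members, against 15.5% and 11.2% of genes. The ranges over mice of the top 2 types did not overlap for 9 of 40 members, against 34.0% of genes. By type these were 4 in Microglia, against 5.09% of genes, and 5 in T cells, against 1.77%. For the other 31 the first place was not separated from the second beyond the spread. The 4 Microglia genes were Stat2, Irf7, Bst2 and Trim30a, and the 5 T cell genes were Ifit1, Gbp3, Gbp7, Igtp and Parp14. The top type was apart from every other type for 8 of these, against 31.6% of genes. They were 4 in Microglia, against 4.92% of genes, and 4 in T cells, against 1.60%. The exception was Ifit1, whose range in T cells overlapped that in fibroblasts. Macrophages were ranked as a whole. In their deposited sub-cluster M1 alone, Irf7 had a mean of 452 CPM, inside the range of Microglia, and Parp14 141 CPM, against 140 CPM in T cells. For Stat2, Bst2, Trim30a, Gbp3, Gbp7 and Igtp the M1 mean was below the range of the top type. Isg15, ranked first in T cells at a mean of 320 CPM, was higher in M1, at 503 CPM. Iigp1, a GTPase that attacks the vacuoles of intracellular parasites, had its highest mean in fibroblasts, where it was 533, 46.2, 407 and 486 CPM. Vehicle replicate 2 was far below the other 3 mice there.

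**Figure D1:**
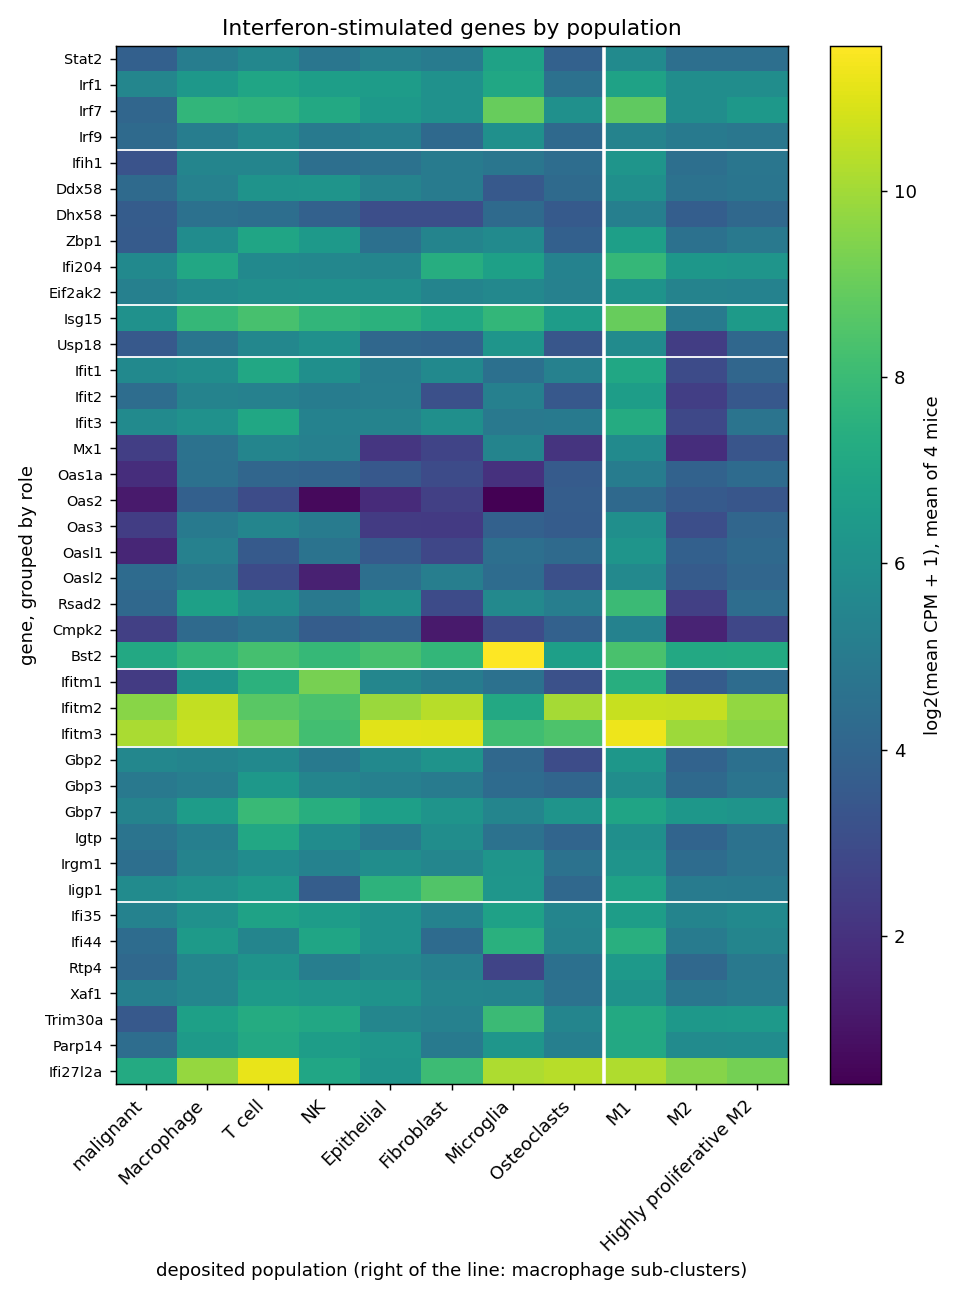
Mean level of each of 40 interferon-stimulated genes (vertical axis, grouped by role between the white lines) in malignant cells, 7 host types and 3 macrophage sub-clusters (horizontal axis), as log2(mean CPM + 1) averaged over 4 mice (colour). Ifitm2 and Ifitm3 form the bright rows, Bst2 stands out in Microglia and Ifi27l2a in T cells, and M1 is brighter than M2 for 39 of 40 genes in every mouse.

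Macrophages exceeded malignant cells for 36 of 40 members in all 4 mice, against 41.8% of 13532 genes. The ratio of 4-mouse means was 13.5 for Irf7, 18.6 for Oasl1 (a relative of the oligoadenylate synthetases) and 17.8 for Ifitm1. Gbp2, a guanylate-binding protein, was the exception with malignant cells above macrophages in every mouse (55.6, 31.7, 47.3 and 51.6 CPM against 50.6, 22.2, 43.7 and 51.3 CPM). The differences within single mice were small for Gbp2. Ifit1, Ifit3 and Iigp1 were higher in macrophages in 3 of 4 mice.

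Within macrophages, the sub-cluster deposited as M1 exceeded that deposited as M2 for 39 of 40 members in all 4 mice, against 18.6% of 11932 genes. Whether these genes shaped the sub-clusters is not given in the sources used here, so this is a description with no test. Rsad2 (viperin, which makes a chain-ending nucleotide) was 282, 271, 138 and 330 CPM in M1 and 5.47, 2.33, 5.57 and 5.42 CPM in M2, a ratio of means of 54.3. Isg15, the ubiquitin-like modifier, was 474, 612, 289 and 637 CPM in M1 and 32.5, 20.6, 25.4 and 42.3 CPM in M2. The ranges of M1 and M2 did not overlap for either gene. The ratio of means was 24.9 for Ifit3, 21.3 for Cmpk2 (a nucleotide kinase encoded beside Rsad2), 19.6 for Mx1 (a GTPase that traps viral nucleocapsids) and 7.76 for Irf7. It was 1.33 for Irf9, the DNA-binding partner of the STAT pair, and 1.67 for the kinase Eif2ak2. Ifitm2 was the exception, at 1.03, with M1 above M2 in 2 of 4 mice.

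To ask whether digoxin changed these genes, each population was fitted with limma on log2(mean CPM + 1) per mouse over all genes that passed a filter on low counts, at a Benjamini-Hochberg adjusted p below 0.05. All 40 members passed the filter in malignant cells, in all non-malignant cells together and in Macrophage, M1, M2 and Highly proliferative M2. In T cell, NK, Epithelial, Fibroblast, Microglia and Osteoclasts, 39, 38, 38, 34, 33 and 37 passed. In 11 of 12 populations no member passed the threshold, and in NK cells 1 of 38 did.

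In malignant cells 0 of 40 members passed, against 0% of 17138 genes, and 1 had an unadjusted p below 0.05, against 3.41% of genes. The summed level of the 12 antiviral effectors was 411, 262, 251 and 344 CPM, and that of the 6 GTPases was 282, 139, 199 and 250 CPM. The 2 vehicle tumors lay on both sides of digoxin replicate 2 in both sums. The median log2 difference of the members was -0.05, against -0.01 over all genes, with 14 members higher and 26 lower. Without vehicle replicate 1 that median was 0.20, and without vehicle replicate 2 it was -0.37. The member with the smallest p was Ifitm1, at 3.61, 3.55, 5.05 and 4.37 CPM. The 4 summed neutrophil markers were 11.03, 11.4, 31.0 and 18.8 CPM there, also higher in both digoxin tumors. So were the 5 endothelial markers (4.66, 5.92, 8.59 and 26.6 CPM), the 6 NK markers (5.88, 3.62, 6.12 and 6.05 CPM) and the dendritic markers. The 7 macrophage markers were lower in both, at 547, 564, 418 and 433 CPM, as were the fibroblast, plasmacytoid dendritic and osteoclast markers. The fibroblast markers summed to 5965, 6251, 4981 and 4335 CPM, and the plasmacytoid dendritic set includes the member Bst2. Whether the UMIs of these sets came from other cells or from the malignant cells themselves was not tested. The log2 difference of Ifitm1 was 0.32 (SE 0.11), with an adjusted p in limma of 1.00, and it was 0.59 without marked doublets and 0.18 with a pseudocount of 5.

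In all non-malignant cells and in macrophages the count was again 0 of 40, against 0% of 14879 and 0% of 13734 genes. No member had an unadjusted p below 0.05 in either, against 3.90% and 4.04% of genes. Irf1, a factor induced directly by interferon gamma, had the smallest p in both. In macrophages it was 98.5, 40.6, 91.5 and 91.0 CPM, so 3 mice were close together and vehicle replicate 2 was low. The sub-cluster M1, where Irf1 had a mean of 112 CPM against 56.9 CPM in M2, made up 1095 of 2418, 712 of 2456, 1307 of 2748 and 1166 of 2741 macrophages, the smallest part in that same mouse. The part of this mix in the macrophage level was not tested. The log2 difference of Irf1 in macrophages was 0.52 (SE 0.36, limma adjusted p 1.00). It was 1.15 without vehicle replicate 1 and -0.11 without vehicle replicate 2. In all non-malignant cells it was 0.46 (SE 0.35, limma adjusted p 0.975), and 1.02 and -0.10 without these mice in turn. The median member difference in macrophages was 0.02, with 21 higher and 19 lower. That median was 0.26 without vehicle replicate 1 and -0.20 without vehicle replicate 2. It was 0.26 without digoxin replicate 1 and -0.13 without digoxin replicate 2.

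In M1 macrophages 34 of 40 members were lower with digoxin and 6 higher, with a median log2 difference of -0.18 against -0.02 over 12182 genes. None passed the limma threshold, against 0% of genes, and none had an unadjusted p below 0.05, against 7.73% of genes. Digoxin replicate 1 was the lowest of the 4 mice for 35 of 40 members, against 23.7% of genes. Without digoxin replicate 1 the median became 0.14, and 34 members were higher with digoxin. Without digoxin replicate 2 it was -0.46 with 38 members lower, and limma called 5 of 40 (Usp18, Rsad2, Mx1, Ifit3 and Ifit1) and 32 of 12438 genes. Cmpk2 had the smallest p, at 54.6, 39.4, 24.4 and 42.5 CPM. Its log2 difference was -0.51 (SE 0.27), with a limma adjusted p of 0.714, and it was -0.12 without digoxin replicate 1 and -0.90 without digoxin replicate 2.

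M2 macrophages had 29 members higher and 11 lower with digoxin, with a median of 0.12 against 0.02 over 12545 genes. None passed, against 0% of genes, and none had an unadjusted p below 0.05, against 2.28% of genes. Without vehicle replicate 2 the median was -0.17. Ifit1, which binds viral RNA that lacks a host cap, had the smallest p at 5.67, 5.85, 7.79 and 7.97 CPM. Its log2 difference was 0.39 (SE 0.19), with a limma adjusted p of 1.00, and 0.26 with a pseudocount of 5.

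The sub-cluster named Highly proliferative M2 had the largest count of members at an unadjusted p below 0.05 among the 12 populations, 8 of 40, against 3.94% of 11459 genes. None passed after adjustment in limma, against 0% of genes. Ifit3, a partner of Ifit1, was 26.1, 41.4, 13.6 and 17.4 CPM. Both digoxin tumors were below both vehicle tumors, giving a log2 change of -1.05 (SE 0.23, adjusted p in limma 1.00). The 4 mast cell markers summed to 1.62, 0.400, 20.5 and 2.98 CPM and the 5 dendritic markers to 3.54, 1.17, 6.96 and 4.37 CPM. Both were higher in the 2 digoxin tumors, while the other marker sets overlapped between groups. The part of these cells was not tested. DESeq2 on the recovered UMIs called Ifit3 and no other member, with 16 of 11459 genes called, and edgeR called 0 genes. The other 7 were Usp18, Isg15, Rtp4, Mx1, Ifit2, Cmpk2 and Ifitm1, of which Ifitm1 was higher with digoxin and the other 6 were lower. Ifit3, Usp18, Isg15, Mx1, Ifit2 and Cmpk2 belong to the effector set described below. After the thinning given there, 11, 8, 7 and 6 cells above its limit held 57.0%, 79.2%, 61.2% and 32.3% of effector UMIs here. Genes carried by the same few cells are not independent, so the 8 cannot be read as separate changes beside the 3.94%. Over all 40 members 15 were higher and 25 lower, with a median log2 difference of -0.05, and without vehicle replicate 1 the median was 0.15 with 27 higher. Usp18, the protease that removes Isg15, was 17.9, 25.2, 11.9 and 10.7 CPM, again with both digoxin tumors below both vehicle tumors. The share of cells with a UMI overlapped between groups for both genes, at 10.1%, 13.7%, 7.21% and 15.4% for Ifit3 and 18.1%, 11.2%, 13.8% and 14.8% for Usp18, at median depths of 25066 to 28898 UMIs.

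In NK cells, Ifitm1 was lower with digoxin in the main fit. It was 777 and 793 CPM with vehicle and 352 and 526 CPM with digoxin as the mean over cells, and the groups did not overlap. As CPM of summed UMIs it was 1123, 870, 515 and 965, and the groups overlapped. The log2 difference was -0.87 (SE 0.14), with a limma adjusted p of 0.0411, and it was 1 of 7 genes called of 9147 (0.0765%). At an unadjusted p below 0.05 there were 5 of 38 members, against 6.28% of genes. The call was lost in limma without digoxin replicate 1 (log2 difference -0.58, adjusted p 0.121) and with CPM from summed UMIs (log2 difference -0.49, adjusted p 0.828), and with edgeR and DESeq2 (log2 difference -0.43 in both, adjusted p 0.830 and 1.00). It was lost in limma with no filter too (adjusted p 0.343), without marked doublets (0.320) and without cells over 20% mitochondrial UMIs (0.0897), where the log2 difference was -0.87, -0.79 and -0.90. Over all 12 alternatives the adjusted p ran from 2.50e-13 to 1.00.

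The summed UMIs behind this call were 2228, 835, 1146 and 2042 in 144, 69, 150 and 141 NK cells. Ifitm1 had a UMI in 29.9%, 36.2%, 16.7% and 30.5% of NK cells, at median depths of 10992 to 12449 UMIs, and these shares overlapped between groups. In malignant cells, where its level was lowest, the shares were 8.14% to 10.7% at median depths of 46799 to 57658 UMIs. The neighbouring gene Ifitm2 was 329, 444, 248 and 295 CPM and Ifitm3 was 277, 307, 232 and 337 CPM, so Ifitm2 was lower in both digoxin tumors and Ifitm3 overlapped. The 3 genes resemble each other in sequence, so reads could be split between them. Summed markers of 6 genes were 10142, 7984, 10452 and 10352 CPM for NK cells and 187, 47.2, 157 and 108 CPM for T cells. The 7 macrophage markers were 535, 557, 620 and 978 CPM, higher in both digoxin tumors. The summed NK markers were higher in both digoxin tumors, and the summed T cell markers overlapped between groups. Single markers could differ from these sums. Ncr1, an activating receptor that defines NK cells, was lower in both digoxin tumors, at 868, 853, 828 and 627 CPM. Cd3e was at 0 in both vehicle tumors and at 1.76 and 2.04 CPM with digoxin. Neutrophils also carry Ifitm1, and their 4 summed markers in NK cells were 3.08, 0.489, 15.7 and 5.65 CPM. The part of these cells in the result was not tested.

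In T cells 0 of 39 members passed, against 0% of 8930 genes, and 3 had an unadjusted p below 0.05, against 4.28% of genes. Ifitm3 had the smallest p, at 408, 532, 655 and 832 CPM, with both digoxin tumors above both vehicle tumors. Its log2 difference was 0.66 (SE 0.16), with a limma adjusted p of 0.872, and it ran from 0.47 to 0.85 when each mouse was left out. A replicate block in limma called Ifitm3, with 57 of 8930 genes called, though the replicate numbers did not pair the mice. Summed macrophage markers in the T cells were 897, 2930, 1669 and 1923 CPM, which overlapped between groups. The 4 summed neutrophil markers were 5.80, 18.1, 38.5 and 123 CPM, in the same order of mice as Ifitm3. The part of either cell type in the level of Ifitm3 was not tested.

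In the endothelial-marked type named Epithelial, 0 of 38 members passed, against 0.467% of 10272 genes, and 5 had an unadjusted p below 0.05, against 5.77%. Ifitm1 was 55.5, 64.2, 28.5 and 30.0 CPM there, lower in both digoxin tumors, giving a log2 change of -1.0 (SE 0.21, adjusted p in limma 0.0865). It was -0.47 with CPM of summed UMIs (limma adjusted p 0.999), -0.54 in edgeR and -0.55 in DESeq2. The 4 summed mast cell markers were 59.4, 151, 2391 and 2395 CPM in this type and the 7 macrophage markers were 373, 759, 924 and 1084 CPM, both higher in the 2 digoxin tumors. Their part in the level of Ifitm1 was not tested.

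In fibroblasts 0 of 34 passed, against 0% of 9292 genes, and 4 had an unadjusted p below 0.05, against 2.97%. Ifit1 was 116, 48.7, 9.12 and 33.3 CPM there, giving a log2 change of -2.03 (SE 0.59, adjusted p in limma 0.999) over 31 to 78 cells per mouse. It ran from -2.91 to -1.15 when each mouse was left out. Only 6, 1, 0 and 3 fibroblasts had at least 10 UMIs of 10 effector genes, Ifit1 among them, after thinning to 5000 UMIs. The 7 macrophage markers were 395, 128, 628 and 572 CPM, higher in both digoxin tumors, and their part in the result was not tested.

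Microglia gave 0 of 33, against 0% of 5818 genes, and no member had an unadjusted p below 0.05, against 4.78%. Irgm1, a regulator of the immunity-related GTPases, was 58.4, 51.6, 60.5 and 120 CPM there, and only digoxin replicate 2 stood high (log2 difference 0.62, SE 0.33, limma adjusted p 0.980). Without that mouse the difference was 0.14, and without digoxin replicate 1 it was 1.11. Osteoclasts gave 0 of 37, against 0.0128% of 7803 genes, and 6 had an unadjusted p below 0.05, against 6.38%. Ifi27l2a was 1778, 1517, 912 and 1118 CPM there, lower in both digoxin tumors (log2 difference -0.70, SE 0.14, limma adjusted p 0.781), and the difference was -0.38 with CPM of summed UMIs. The 4 osteoclast markers were 26087, 37198, 21966 and 24454 CPM, the 3 microglial markers 523, 680, 410 and 447 CPM and the 6 T cell markers 4.41, 5.20, 2.19 and 1.95 CPM, each lower in both digoxin tumors. In the type named Microglia the same 3 microglial markers were lower, at 97.2, 56.9, 99.8 and 70.5 CPM. The part of any of these sets in the level of Ifi27l2a was not tested.

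Whether digoxin acted differently on macrophages and malignant cells was tested as the per-mouse difference between them. No member passed in limma, against 0% of 13532 genes, and 2 had an unadjusted p below 0.05, against 4.62%. Rsad2 had the smallest p, with an interaction of 0.45 on the log2 scale (SE 0.17, limma adjusted p 0.999). In malignant cells it was 22.8, 17.4, 9.73 and 19.2 CPM, and in macrophages it was 132, 83.1, 70.5 and 144 CPM. Digoxin replicate 1 was the lowest mouse in both.

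**Figure D2:**
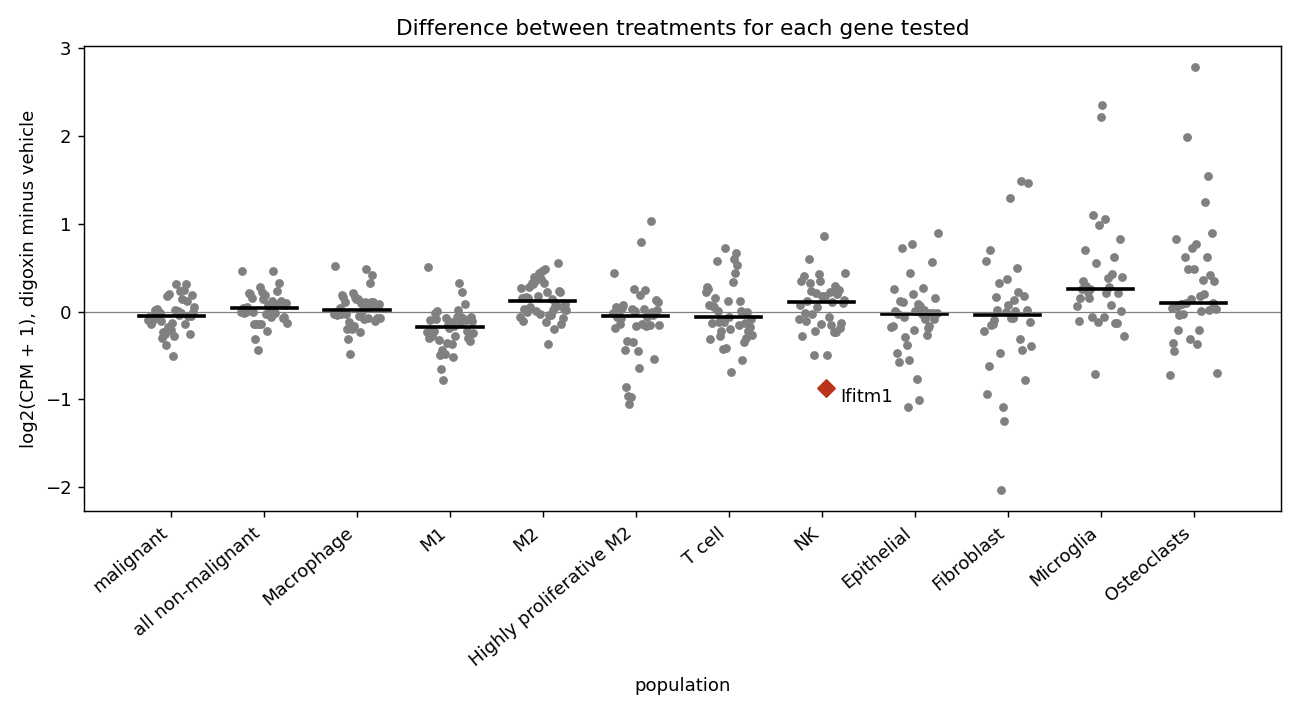
Difference between digoxin and vehicle in log2(CPM + 1) (vertical axis) for each member that passed the filter, in 12 populations (horizontal axis). Each point is 1 gene, bars are medians over genes, and the red diamond is Ifitm1 in NK cells at -0.87, the single call at a limma adjusted p below 0.05.

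In 11 of 12 populations, M1 being the exception, the median member differed more between the 2 vehicle mice than between the groups. A difference between 2 single mice varies more than one between means of 2, so this order carries little weight. The 12 populations overlap in cells and share the same 4 mice. In NK cells the 2 values were close, at 0.13 and 0.10. In malignant cells vehicle replicate 1 was the highest of the 4 mice for 35 of 40 members, against 25.6% of all genes, and vehicle replicate 2 was the lowest for 27 of 40, against 30.8%. The median log2 difference between vehicle replicates 1 and 2 was 0.60 over the members and 0.00 over all genes. Bst2 was 192, 91.3, 123 and 145 CPM, Isg15 was 93.5, 42.6, 48.4 and 80.0 CPM and Iigp1 was 72.1, 28.1, 45.7 and 69.1 CPM. For each of these genes the 2 vehicle tumors enclosed both digoxin tumors. Ifitm2 was nearly level at 763, 766, 799 and 733 CPM.

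The same order of the vehicle mice was present in most host types. The median difference between vehicle replicates 1 and 2 was 0.48 in macrophages, 0.62 in M2, 1.09 in fibroblasts, 1.00 in Microglia and 0.97 in Osteoclasts. It was 0.08 in M1 and 0.13 in NK cells. Beside the 0.48 in macrophages, vehicle replicate 2 had fewer M1 cells (712 of 2456 macrophages, against 1095 of 2418), and the part of this in the difference was not tested. T cells went the other way at -0.54, with 4 of 39 members higher in vehicle replicate 1. The deposited sub-cluster Treg made up 35 of 183 T cells in vehicle replicate 1 and 65 of 110 in vehicle replicate 2, and summed macrophage markers were 897 and 2930 CPM. The part of either in the order was not tested. Irf7 in T cells was 100, 263, 127 and 295 CPM, and Ifit3 was 85.8, 228, 79.7 and 135 CPM. Between the digoxin mice, replicate 2 exceeded replicate 1 for 36 of 40 members in malignant cells, 38 of 40 in macrophages and 33 of 39 in T cells, while of all genes 55.1%, 49.2% and 51.4% were higher in replicate 1. Vehicle replicate 2 is the mouse whose host cells differ in Xist and Ddx3y, and the part of this in the member levels was not tested. No other mouse shares this trait, so it cannot be told apart from anything else particular to that mouse.

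**Figure D3:**
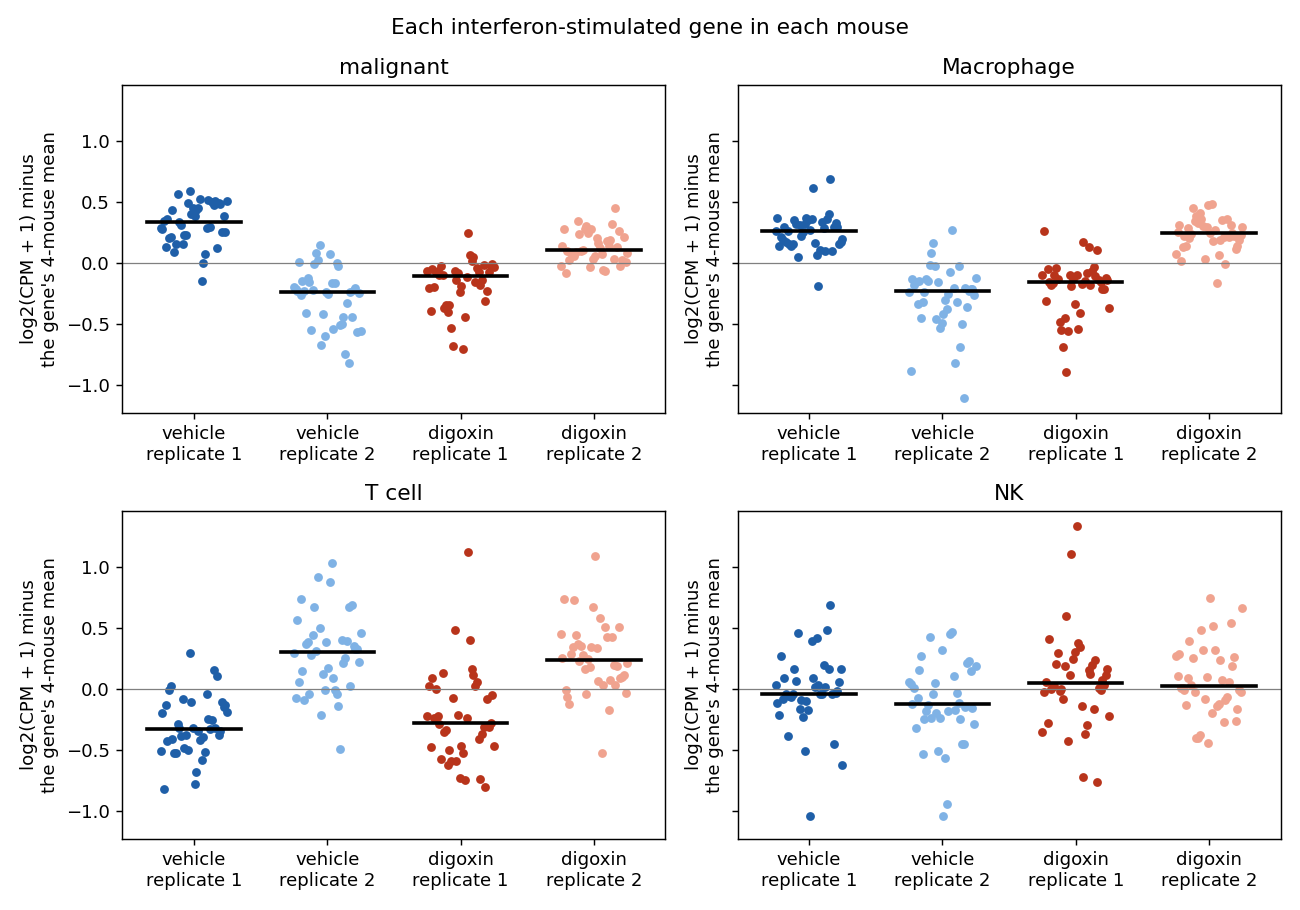
Level of each member in each mouse as log2(CPM + 1) minus that gene's mean over the 4 mice (vertical axis), in malignant, Macrophage, T and NK cells. Points are genes and bars are medians. Vehicle replicate 1 is high and vehicle replicate 2 low in malignant cells and macrophages, and the order is turned in T cells.

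Most UMIs of 10 genes, here called the effector set, came from a small share of cells. To compare cells of unequal depth, each was thinned to 5000 UMIs, leaving out 28 malignant cells and 68 macrophages below that depth. The UMIs of the 10 genes (Ifit1, Ifit2, Ifit3, Isg15, Rsad2, Usp18, Cmpk2, Oasl1, Oasl2 and Mx1, so 8 of the antiviral effectors with the pair Isg15 and Usp18) were then summed per cell. The 10 genes and the limit below were chosen after the values were seen. The median cell had 0 of these UMIs in every mouse, among malignant cells and macrophages alike. The richest 10% of cells held 84.4% to 90.4% of them in malignant cells and 87.4% to 93.5% in macrophages. The variance of the sum was 20.9 to 41.2 times its mean in malignant cells and 48.7 to 62.1 times in macrophages, but 2.63 to 5.23 times in M2.

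Cells with at least 10 effector UMIs per 5000 made up 3.53%, 2.38%, 1.95% and 3.60% of malignant cells (95% exact binomial intervals 3.01% to 4.12%, 2.02% to 2.79%, 1.55% to 2.42% and 3.04% to 4.23%, which cover counting error only). They held 58.4% to 71.7% of all effector UMIs in those cells. In M1 the shares were 14.0%, 15.2%, 8.19% and 17.9%, and in M2 they were 0.214%, 0.133%, 0.353% and 0.592%. The ranges of M1 and M2 did not overlap. No cell type here is known to lack these genes, so no background share is given, and the part of free RNA was not tested. The limit cut through a range of values: 59 to 111 malignant cells per mouse had 5 to 9 effector UMIs, and 40 to 76 had 10 to 19. Whether the cells above it form a state of their own was not tested.

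The share overlapped between treatments in malignant cells, at 2.96% ± 0.817 with vehicle and 2.78% ± 1.17 with digoxin (SD, n = 2 each, two-sided exact permutation p = 1). It overlapped in M1 too, with a change of -1.55 points beside SDs of 0.869 and 6.86 points (n = 2 each, exact p = 1). In Highly proliferative M2 it was 2.93%, 3.43%, 2.30% and 1.57%, lower in both digoxin tumors by 1.25 points, and rested on 11, 8, 7 and 6 cells. In M2 it was higher in both digoxin tumors by 0.30 points and rested on 2, 2, 4 and 7 cells. An exact permutation test gave p = 0.333 for each, and 2 mice against 2 allow no smaller value. Without digoxin replicate 1 the change was 3.31 points in M1 and 0.65 points in malignant cells, so both turned sign with that mouse. In malignant cells it also turned sign without vehicle replicate 1, to 0.40 points.

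**Figure D4:**
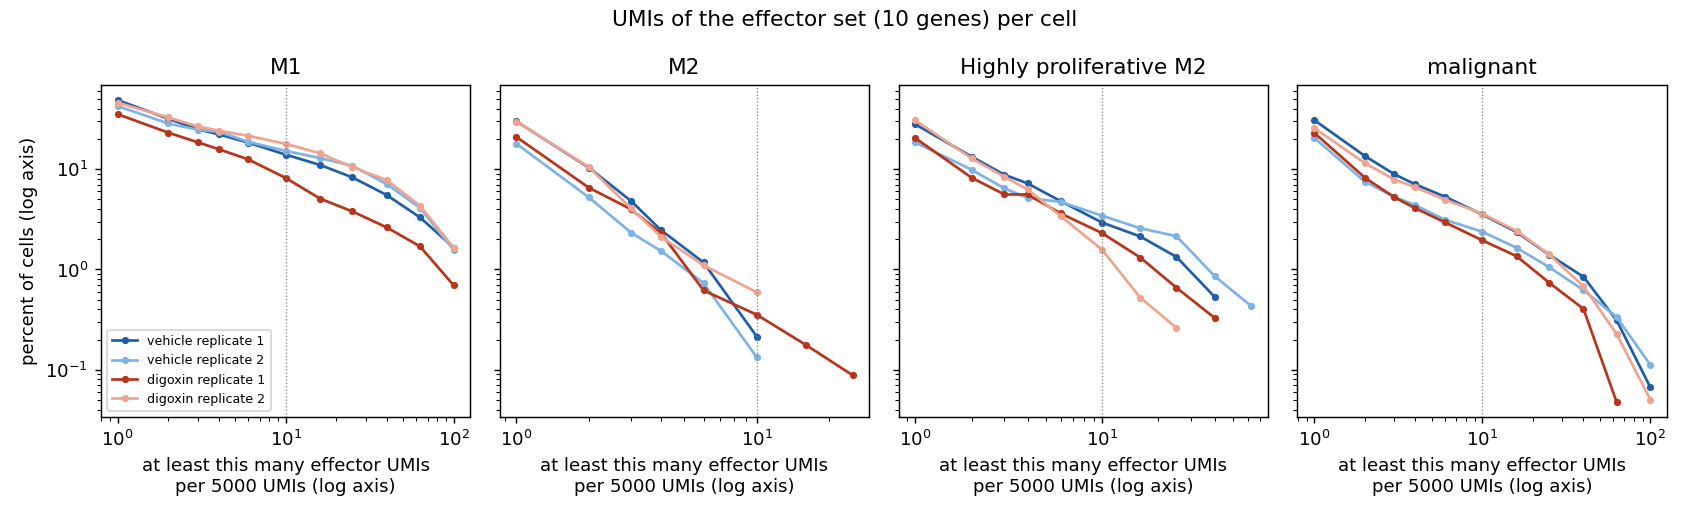
Share of cells (vertical log axis) with at least a given number of effector UMIs per 5000 UMIs (horizontal log axis) in 3 macrophage sub-clusters and malignant cells, 1 line per mouse. The dotted line is the limit of 10 UMIs. M1 keeps 8.19% to 17.9% of cells at that limit, while M2 keeps less than 0.6%.

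The remaining 30 members, which played no part in the limit, followed the same cells. In malignant cells 29 of 30 were higher above the limit than in the rest in all 4 mice, against 14.9% of 12332 genes. With 1 CPM added to each level, 28 of 30 were at least 2-fold higher in all 4, against 2.04%. Irf7 was 240, 232, 230 and 236 CPM in cells above the limit and 11.98, 7.82, 7.32 and 10.8 CPM in the rest. Ifi44 was 426, 349, 377 and 371 CPM against 12.3, 5.39, 7.64 and 9.63 CPM. Relative to its mean, the level of both genes varied less between mice above the limit than below it. Other members varied more: Trim30a was 97.0, 55.2, 95.1 and 110 CPM above the limit. Gbp3, a guanylate-binding protein, had means of 318 and 20.8 CPM, and Iigp1 had means of 826 and 30.4 CPM. The gamma-responsive factor Irf1 differed less, with means of 126 and 42.0 CPM. Ifitm3 had means of 2920 and 1067 CPM and Ifitm2 had means of 1000.2 and 758 CPM. Ifitm1 was the exception, with means of 4.34 and 4.10 CPM, and was higher in 1 of 4 mice.

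In M1 macrophages, too, 29 of 30 were higher in all 4 mice, against 16.8% of 11621 genes. With 1 CPM added to each level, 26 of 30 were at least 2-fold higher in all 4, against 3.24%. Irf7 was 1878, 2315, 1908 and 2112 CPM above the limit and 186, 254, 161 and 175 CPM below it. Ifi204, a DNA sensor, had means of 969 and 108 CPM, and Ifih1, the RNA sensor MDA5, had means of 350 and 30.7 CPM. Ifitm1 again did not follow, with means of 165 and 166 CPM. The share of M1 cells above the limit ranged from 8.19% in digoxin replicate 1 to 17.9% in digoxin replicate 2.

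Macrophage markers were compared between the malignant cells above the limit and the rest. The median of 7 summed markers (Adgre1, Csf1r, Cd68, C1qa, C1qb, Mrc1 and Lyz2) was 0.713, 1.13, 0.851 and 1.07 UMIs per 10000 above it, and 0.685, 0.882, 0.738 and 0.942 in the rest, so it was higher above the limit in all 4 mice. The share of cells with 3 of these markers was 54.1%, 57.7%, 50% and 58.7% above it and 53.0%, 51.9%, 53.5% and 62.7% in the rest, higher above the limit in both vehicle tumors and lower in both digoxin tumors. The median of the summed markers was 137 to 288 UMIs per 10000 in macrophages. All 7 markers were detected in malignant cells as a whole. Doublets were marked in 3.14%, 6.71%, 2.44% and 4.90% of the malignant cells above the limit and in 8.57%, 7.36%, 5.51% and 5.54% of the rest. Median depth was 40612 to 50166 UMIs above the limit and 46922 to 57982 in the rest, lower in every mouse. The median share of mitochondrial UMIs was 4.58% to 5.21% above it and 5.22% to 5.96% in the rest, also lower in every mouse. In M1 the latter was 3.36% to 4.28% above the limit and 3.79% to 4.66% below it, lower in every mouse, while median depth was 13103 to 14675 and 12837 to 14847 UMIs. No M1 cell above the limit was marked as a doublet (0%). The part of these differences in the member levels was not tested.

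**Figure D5:**
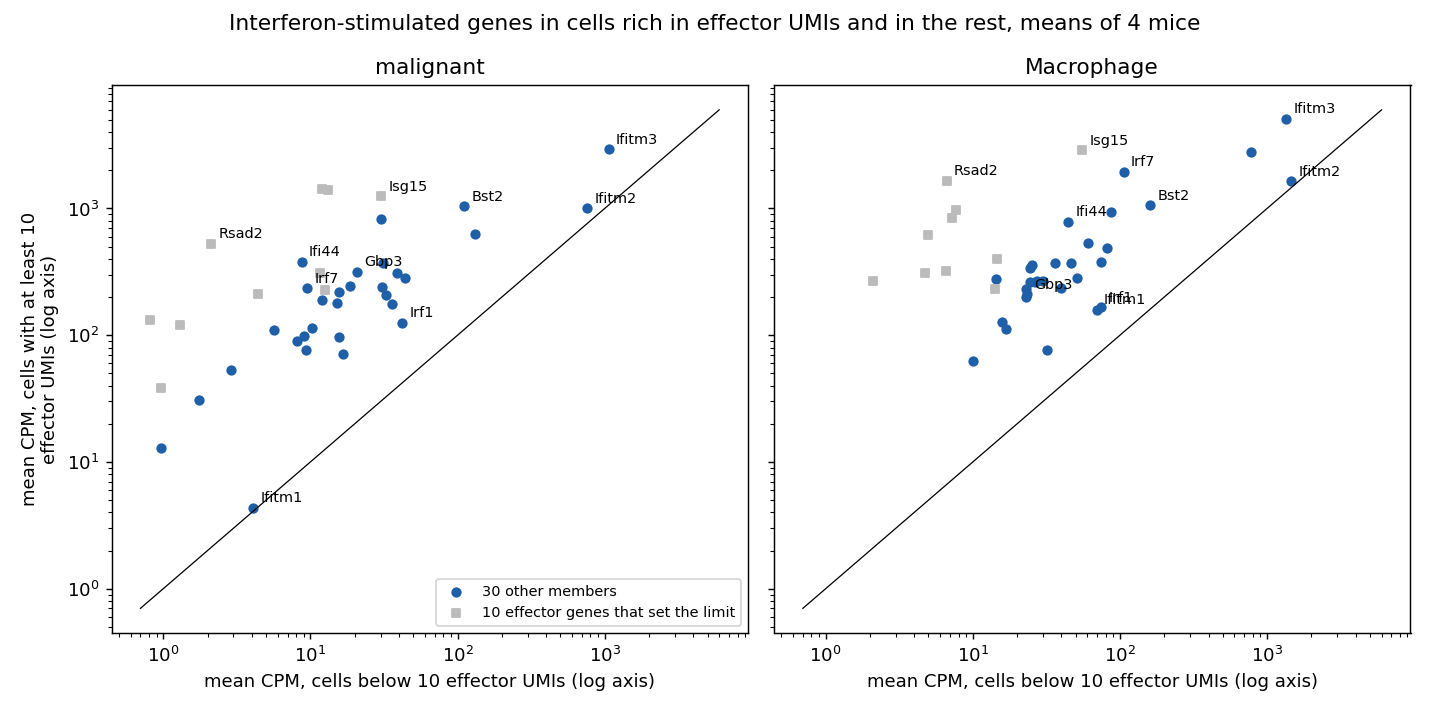
Mean CPM of 40 members in cells with at least 10 effector UMIs per 5000 (vertical log axis) against cells below that limit (horizontal log axis), as means of 4 mice, in malignant cells and macrophages. The line marks equal levels. Grey squares are the 10 genes that set the limit, blue points are the 30 others, and Ifitm1 lies near the line in malignant cells at 4.34 and 4.10 CPM.

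Genes outside the list were ranked by their lowest ratio over the 4 mice, with 1 CPM added to each level. The added 1 CPM lowers the ratio most for low genes, so the order and the folds depend on it. The genes named were chosen after their values were seen. In malignant cells Cxcl10, a chemokine that attracts activated T cells, was 2958, 3724, 2507 and 3392 CPM above the limit and 130, 88.7, 101 and 124 CPM in the rest. Cxcl9 and Ccl5, chemokines for lymphocytes, were at least 15.4-fold and 14.6-fold higher in each mouse. Gbp5, Gm4951, Ddx60 and Phf11d ranked between Cxcl10 and Cxcl9, at 21.8-fold, 21.1-fold, 16.8-fold and 15.7-fold or more. Ifit3b led in malignant cells at 69.1-fold or more, but it is nearly identical to Ifit3, so its UMIs are uncertain. In M1, Ifit1bl1 led at 79.1-fold or more, and Isg20, an exonuclease of viral RNA, was 18.5-fold or more higher.

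Of 28 other pathway genes fixed as ligands, receptors, signalling proteins and brakes, 25 were in both tables. None of the 24 tested in malignant cells and none of the 25 tested in macrophages passed the limma threshold, against 0% of all genes in both. In each, 1 had an unadjusted p below 0.05, against 3.41% and 4.04% of all genes. Ifng, a ligand, was 0.0309 to 0.0896 CPM in malignant cells and 0.0356 to 0.329 CPM in macrophages. Its levels in T and NK cells are not given here. The other listed ligand, Ifnb1, was not among the 25. Ifnar1, a receptor chain for type I interferon, was 33.2, 34.6, 34.1 and 30.2 CPM in malignant cells and 151, 157, 160 and 146 CPM in macrophages. Ifngr1, the binding chain for interferon gamma, was 75.7, 70.8, 72.5 and 65.4 CPM in malignant cells and 252, 325, 313 and 262 CPM in macrophages.

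Above the effector limit in malignant cells, Ifnar1 had a mean of 39.4 CPM against 32.8 CPM in the rest, and Ifngr1 86.7 against 70.6 CPM. Tlr3, a sensor of double-stranded RNA, had means of 46.6 and 5.03 CPM, and Adar, an RNA-editing enzyme that restrains the response, had means of 62.3 and 12.9 CPM. In M1, Ifngr1 was lower above the limit, at 191 against 381 CPM, and Socs1, an inhibitor of Jak kinases, was higher, at 76.4 against 16.6 CPM.

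Across malignant cells and the 7 host types, the genes whose levels were most alike were sought among 9104 genes for Irf7 and for each member that had the highest level of all members in at least 1 population. For Irf7 they were Hnrnpul1 (Pearson's r 0.99), 0610030E20Rik (0.98) and H2afj (0.98). For Bst2 they were Sertad3 (0.99), Tubgcp5 (0.98) and Arid1b (0.98), and for Ifitm1 they were Ppie, AW112010 and Pglyrp1 (0.97, 0.97 and 0.96). For Ifitm3 they were Stx2, Cd81 and Atp11a (0.98, 0.98 and 0.96), and for Ifi27l2a they were Sh3kbp1, Gm2a and Pias1 (0.96, 0.95 and 0.94). These rest on 8 populations that share the same 4 libraries, and none of the genes was a member. They are the highest values among 9104 genes over so few points, so their size carries little weight.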

How the data were processed

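Expression was measured in single cells of 4 tumors, 2 per group. The authors deposited the values as the natural log of 1 plus the UMIs per 10000 UMIs of a cell, as the recovered values show, together with UMI counts per cell. Cell Ranger 3.0.2, Seurat 3.0.2 and build mm10 are named in the submitters' processing notes. The aligner settings and cell filter are not given in the sources used here. Whole UMIs were recovered within 0.01 for 100% of values above 0, and summed to the deposited count in every cell. No column was without a sample (0). The design named edgeR for counts and limma for normalized values, so limma was the main test.

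CPM per cell was averaged per mouse and population. limma 3.58.1 (trend) was fitted on log2(mean CPM + 1), a scale that understates changes of low genes, after edgeR's filterByExpr, in populations with at least 20 cells in each mouse. The types named Unknown, Neutrophil, Dendritic and B cell were too small to test, and the T cell sub-cluster Treg (35 to 65 cells per mouse) was not fitted on its own. edgeR 4.0.16 and DESeq2 1.42.0 were run on recovered UMIs. Counts simulated for Macrophage and NK were fitted too, as summed counts with a fixed spread for all genes. That setting differs from these data, so it does not show how well the test works here. Scrublet (scanpy 1.11.5, expected share 0.06) marked 1381 of 31611 cells (4.37%) as doublets, of which 84 were non-malignant (0.664%), and these cells were kept. Cells above 20% mitochondrial UMIs (331, 1.05%) were kept too. Shares used a two-sided exact permutation test and 95% Clopper-Pearson intervals. Alternatives were a pseudocount of 5, no filter, summed UMIs, both count tools, a replicate block, leaving out each mouse, and leaving out marked doublets or cells above 20% mitochondrial UMIs. A test was given for each member past the threshold, otherwise for the member with the smallest p, and the pathway genes were read by counts. The members and lists were chosen with earlier results of these data known. Ifit, Ifitm, Oas, Gbp and Ifi200 families hold similar copies, between which counting could split reads. A part of the genotype that all mice share is not reported here.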

Additional observations from a re-analysis of the deposited data

How the results depend on the processing

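In limma, the number of members called was 0 in malignant cells, all non-malignant cells and Macrophage under each of the alternatives that kept all 4 mice. For NK cells it was 1, and 0 with no filter, CPM of summed UMIs, edgeR, DESeq2, without marked doublets and without cells over 20% mitochondrial UMIs. The log2 difference of Ifitm1 there was -0.87 with no filter, -0.79 without marked doublets and -0.90 without the mitochondrial cells, but -0.49, -0.43 and -0.43 with summed UMIs, edgeR and DESeq2. DESeq2 called 1 in Highly proliferative M2 (Ifit3). The same replicate numbers did not pair the mice: deviations of same-numbered mice correlated between -0.363 (malignant) and 0.0608 (T cell) across genes. With a replicate block the count was 1 in T cells (Ifitm3), 1 in Osteoclasts (Rsad2) and 1 in NK cells (Ifitm1), and 0 in the other populations, with 57 of 8930, 3 of 7803 and 23 of 9147 genes called there. With crossed numbers, chosen after seeing the data, the count was 0 in malignant cells, in Microglia and for the difference between macrophages and malignant cells, with 0 of 17138, 40 of 5818 and 179 of 13532 genes called.

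When each mouse was left out in turn, the count ran from 0 to 0 in malignant cells, all non-malignant cells and Osteoclasts, 0 to 1 in M2 and for the difference between macrophages and malignant cells, 0 to 2 in NK, 0 to 3 in Macrophage and Microglia, 0 to 5 in M1, 0 to 6 in Epithelial, 0 to 7 in T cells, and 0 to 9 in Highly proliferative M2 and Fibroblast. At the highest member count, limma called 132 of 14181 genes in Macrophage, 55 of 5700 in Microglia, 142 of 9601 and 24 of 9444 in NK, 50 of 12973 in M2, 244 of 13910 for the difference, 32 of 12438 in M1, 341 of 10660 in Epithelial, 198 of 9121 in T cells, 256 of 11739 in Highly proliferative M2 and 462 of 9847 in Fibroblast, the last 4 without vehicle replicate 1. The lone mouse of the reduced group was assumed to vary like the other group. Irf1 turned sign without vehicle replicate 2, to -0.10 in all non-malignant cells and -0.11 in macrophages, and reached 1.02 and 1.15 without vehicle replicate 1.

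The change in the share of cells with at least 10 effector UMIs ran from -1.0 to 0.65 points in malignant cells, -1.55 to 2.25 in macrophages, -6.40 to 3.31 in M1 and -1.61 to -0.88 in Highly proliferative M2 when each mouse was left out. It turned to 0.40 in malignant cells without vehicle replicate 1 and to 0.65 without digoxin replicate 1, to 3.31 in M1 without digoxin replicate 1, and to -0.69 and -1.55 in macrophages without vehicle replicate 2 and digoxin replicate 2. With a limit of 20 UMIs it was -0.33 in macrophages, against 0.35. These limits were chosen after seeing the data, and the cause of each change was not tested. Precision was lowest in Fibroblast, Microglia and Osteoclasts, with as few as 31, 31 and 28 cells in a mouse.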
